A study of Mus musculus with 8 samples.

Results

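The nuclei described here were L4/5 IT neurons of the Rorb type, a set of excitatory neurons of the mouse cerebral cortex whose axons stay within the telencephalon (IT, intratelencephalic). Members were chosen by their own UMI counts (UMIs are molecular tags that mark single captured RNA molecules). Nuclei entered if 500 or more genes were detected and mitochondrial UMIs did not exceed 2%. A member then had at least 1 UMI of Slc17a7, at least 4 of Rorb and at least 1 of Adam33, Whrn and Rspo1 together. It had at most 1 UMI of Gad1 plus Gad2, at most 1 of Ccbe1 plus Otof, at most 1 of Deptor plus Hgf, and at most 2 of Slc1a3, Mog, Inpp5d and Flt1 together. This rule gave 5167 nuclei, 6.69% of the 77185 nuclei kept and 12.3% of the 42073 excitatory nuclei.

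The 8 libraries were single-nucleus 3′ libraries of 1 C57BL/6J mouse each at postnatal day 25, taken from cerebral cortex with the medial part removed and frozen before nuclei were isolated. Wild type (WT) and Chd8+/- mice gave 4 libraries per genotype, with 2 males and 2 females in each. Chd8+/- animals carry 1 mutant copy of Chd8, a chromatin remodeller associated with autism; how the allele was made is not given in the sources used here. In what follows, Chd8het stands for the libraries so labelled. All animals numbered 1 had single-indexed libraries and all numbered 2 dual-indexed ones, a difference in how the library barcodes were added. The animals formed litter- and sex-matched pairs, but the labels do not say which replicate numbers share a litter.

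RORB, the product of Rorb, is an orphan nuclear receptor of the RAR-related family. It is known for its high level in layer 4 of sensory cortex, where it takes part in the formation of whisker barrels. Layer 4 IT neurons receive the main thalamic input to sensory cortex and send most of their output to the upper layers of the same column.

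Sequences of the Rorb promoters are shown because Rorb sets membership. RefSeq (GRCm38.p6) lists 2 starts on the minus strand of chromosome 19, at chr19:19111147-19111446 and chr19:19001068-19001367. Each window runs 5′ to 3′ from 250 bases before the start to 50 after it, and the bases after the start are in capitals.
Rorb, upstream start: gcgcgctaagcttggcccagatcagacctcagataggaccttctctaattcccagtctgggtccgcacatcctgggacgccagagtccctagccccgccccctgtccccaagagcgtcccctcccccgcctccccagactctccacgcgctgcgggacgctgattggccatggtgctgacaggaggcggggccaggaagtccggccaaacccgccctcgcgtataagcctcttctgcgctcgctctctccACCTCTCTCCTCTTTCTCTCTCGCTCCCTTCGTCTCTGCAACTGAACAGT
Rorb, downstream start: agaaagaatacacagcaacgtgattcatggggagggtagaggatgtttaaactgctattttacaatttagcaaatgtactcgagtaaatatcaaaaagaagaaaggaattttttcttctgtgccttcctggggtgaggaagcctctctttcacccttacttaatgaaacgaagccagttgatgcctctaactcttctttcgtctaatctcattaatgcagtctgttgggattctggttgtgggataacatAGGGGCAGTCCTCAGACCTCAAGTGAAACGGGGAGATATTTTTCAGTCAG
The letters AGGTCA, the half-site bound by ROR-family receptors, were searched on both strands. They were in 16.3% of all 32851 promoter windows of the table and in 0 of the 8 windows of the 5 markers with an entry (Rorb, Rspo1, Whrn, Kcnh5 and Brinp3), which says only that these letters are not in these windows.

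A second set of sequences comes from the locus of 5330434G04Rik, a long noncoding RNA gene whose libraries did not overlap between genotypes, as given further on. The gene lies at chrX:105348282-105391776 on the minus strand (GENCODE M21, GRCm38). Its RefSeq promoter window is chrX:105391705-105392004, again with the bases after the start in capitals.
5330434G04Rik: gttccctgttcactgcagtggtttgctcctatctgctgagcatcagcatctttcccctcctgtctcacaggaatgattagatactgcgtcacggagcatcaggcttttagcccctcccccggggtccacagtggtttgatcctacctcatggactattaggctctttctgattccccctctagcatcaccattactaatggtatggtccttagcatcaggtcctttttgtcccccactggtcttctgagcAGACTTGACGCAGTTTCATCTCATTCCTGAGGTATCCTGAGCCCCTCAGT
The same strand of this gene holds the microRNA gene Mir325 (chrX:105379082-105379179). Its mature products follow with the seed, bases 2 to 8, in capitals; the 2 arms share no seed, and mature microRNAs were not measured here.
mmu-miR-325-5p: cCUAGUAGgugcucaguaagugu
mmu-miR-325-3p: uUUAUUGAgcaccuccuaucaa

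The label was checked against 6 markers. Rorb, Adam33, Whrn and Rspo1 belong to the rule, so their levels are a description of it. Kcnh5, a voltage-gated potassium channel of the EAG family, and Brinp3 were not used by it. Kcnh5 was at 717 CPM (UMI counts scaled to equal library totals; mean of 8 libraries, range 585 to 887) in members and at 227 CPM (180 to 265) in the other excitatory nuclei. Brinp3 was at 1832 CPM (1273 to 2433) in members and at 666 CPM (459 to 888) in the others. Both were higher in members in 8 of 8 libraries, and neither range reached the other.

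At least 1 UMI of Kcnh5 was found in 95.5% of members and of Brinp3 in 97.9%, as means over libraries. In the other excitatory nuclei those shares were 53.1% and 73.4%, and in upper-layer IT nuclei, defined further on, 63.1% and 64.8%. Detection of either gene is thus not particular to members. In nuclei with at least 2 UMIs of Mog plus Inpp5d, oligodendrocyte and microglia genes, and no UMI of Slc1a3, Flt1, Slc17a7, Gad1 or Gad2, those shares were 11.96% and 30.8%; free RNA can give such UMIs. These 2809 nuclei were shallower, with medians of 2197 to 3048 UMIs per library against 8490 to 11549 in members. Thinned to 4000 UMIs per nucleus, which kept 4972 members and 656 Mog and Inpp5d nuclei, Kcnh5 was found in 86.8% of members and 14.1% of the other set. Brinp3 was then found in 94.3% and 40.5%. Other excitatory nuclei thinned in the same way had Kcnh5 in 41.1% and Brinp3 in 62.3%.

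Member nuclei carried the rule's markers in different combinations. Whrn alone was found in 1677 nuclei, Adam33 alone in 1667 and Rspo1 alone in 325. Counts were sparse: 1896 members had exactly 1 UMI of these 3 genes together and so could show only 1 of them. All 3 were found in 192 nuclei, a median of 3.602% of members per library. Whrn encodes a scaffold protein of stereocilia and synapses, Adam33 a membrane metalloprotease and Rspo1 a secreted enhancer of Wnt signalling.

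Nuclei near the thresholds were described without a test. The 285 nuclei with exactly 4 Rorb UMIs, just inside, had Kcnh5 at 480 CPM and Brinp3 at 1463 CPM. The 325 with exactly 3, just outside, had 447 and 1154 CPM. A larger set of 3124 nuclei met every other condition but had no UMI of Adam33, Whrn or Rspo1. It had Kcnh5 at 521 CPM (range 388 to 590) and Brinp3 at 1247 CPM (952 to 1801), and both ranges overlapped those of members. Il1rapl2, a synaptic adhesion gene listed here among L5 IT markers, was at 792 CPM there, against 345 CPM in members.

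Other excitatory nuclei served to place the members, again without a test, since the rule chose the nuclei by their counts. Of the 15 genes with the highest fold over other excitatory nuclei at a mean of 50 CPM or more, Whrn, Adam33 and Rorb belonged to the rule. The others included Col26a1 (152 against 33.2 CPM), Rcan2, a calcineurin regulator (539 against 150 CPM), Lama4, a laminin chain (81.9 against 22.96 CPM), Thsd7a (282 against 87.4 CPM), Pld5 (137 against 45.4 CPM) and Grik1, a kainate receptor subunit (195 against 66.0 CPM). Gm20752, 1700047F07Rik, Ankfn1, Tmem145, Ccdc3 and Kcnh5 completed that list, and every one of the 15 was higher in members in 8 of 8 libraries. They were picked by their fold in these same libraries, which favours such agreement. Of all 8984 genes at 10 CPM or more, 1232 were higher in members in all 8 libraries and 1994 lower.

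The 10 lowest genes were 6530403H02Rik, Cdh9, Dscaml1, Bcl11b, Iqgap2, Foxp2, Tshz2, Sema3e, Nrp1 and Cntnap5c, all lower in members in 8 of 8 libraries. Their choice by fold in these libraries favours that agreement too. Bcl11b, a transcription factor of L5 extratelencephalic neurons, was at 13.5 CPM in members and 74.1 CPM in other excitatory nuclei. Foxp2, a deep-layer transcription factor, was at 26.4 and 133 CPM. Cdh9, a cadherin, was at 22.9 and 134 CPM. Dscaml1, an adhesion gene, was at 53.3 and 301 CPM, and it was at 752 CPM in the Mog and Inpp5d nuclei.

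Among 23 layer identity regulators at 10 CPM or more, 3 were at least 2-fold higher in members and 5 at least 2-fold lower. Over all 8984 genes at that level 95 and 241 were. The 3 higher were Rorb, whose excess the rule fixed, its relative Rora (3076 against 1355 CPM) and Cux1, an upper-layer homeobox gene (478 against 217 CPM). The 5 lower were Bcl11b, Foxp2, Tle4, Sox5 and Etv1. Cux2 stood at 264 against 138 CPM, close to the 266 CPM of upper-layer IT nuclei, while Rora in those nuclei was at 828 CPM.

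Guidance and patterning genes of layer 4 neurons showed 2 of 42 at least 2-fold higher and 6 of 42 at least 2-fold lower. Unc5d, a netrin receptor, was at 2236 against 871 CPM, and Plxnd1, a semaphorin receptor, at 52.0 against 24.2 CPM. Sema3e, a ligand of PLXND1, was at 17.4 against 80.2 CPM. Nrp1 (25.9 against 117 CPM), Nrp2, Cdh9, Cdh13 and Robo1 (368 against 765 CPM) were the other low ones. Btbd3, which orients layer 4 dendrites, was at 51.6 against 42.0 CPM.

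Glutamate receptors and their auxiliary subunits differed in both directions, with 4 of 35 at least 2-fold higher and 9 of 35 at least 2-fold lower. Grik1, Cnih3 (114 against 51.0 CPM), Shisa6 (122 against 53.0 CPM) and Grm2 (18.9 against 7.81 CPM) were higher. Grik4 (41.6 against 177 CPM), Grm8 (142 against 594 CPM), Grik3 (45.1 against 158 CPM) and Gria3 (447 against 1176 CPM), an AMPA receptor subunit, were lower, as were Neto1, Neto2, Cacng4 and Grin3a. Potassium and HCN channels had 1 of 43 higher, Kcnh5, and 3 of 43 lower, among them Kcnn2 (108 against 248 CPM). Of 49 synaptic adhesion genes, 0 were 2-fold higher and 3 were 2-fold lower, including Lrrtm4 (2241 against 4917 CPM).

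**Figure D1:**
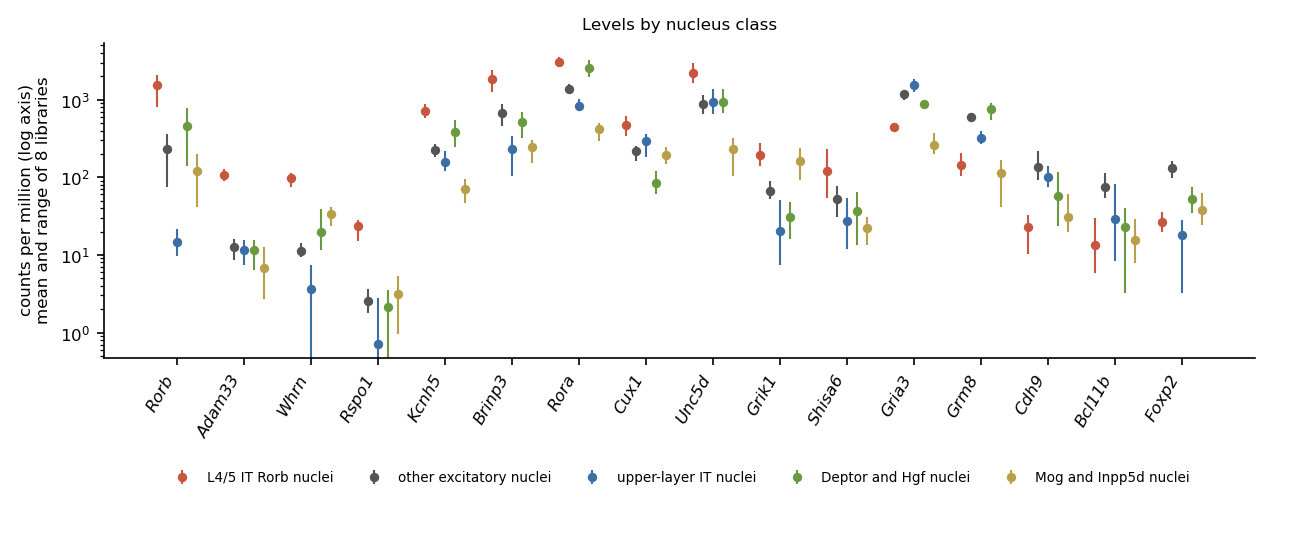
CPM (log axis) of 16 genes in 5 classes of nuclei; points are means of 8 libraries, lines run from the lowest to the highest library, and a line that meets the axis reaches 0. L4/5 IT Rorb nuclei sit above the other excitatory nuclei for Rorb, Adam33, Whrn, Rspo1, Kcnh5 and Brinp3, and below them for Gria3, Grm8, Cdh9, Bcl11b and Foxp2.

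Member nuclei were split into 7 sub-clusters by genes outside the rule, after 233 predicted doublets were set aside, leaving 4934. Before clustering, each gene was centred on its mean within each library, which favours sub-clusters shared by libraries. Every sub-cluster was present in all 8 libraries. They are described by their leading genes and are not tested against each other.
Sub-cluster 1, 20.6% of these nuclei, was led by 4930555F03Rik, Nell1 (1492 CPM against 383 in the other members), Nell1os, C130073E24Rik and Antxr1. It also had the most Rorb, 2924 against 1423 CPM. Sub-cluster 5, 12.5%, was led by Gm34567, Smoc2, Xkr6, Gm32647 and Itga8 and had the most Adam33, 239 CPM.

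Sub-cluster 2, 15.5%, was led by Il1rapl2 (1017 against 154 CPM), Aldh1l1, Plcxd3, Ptprm and Ryr3. Etv1, an L5 transcription factor, was at 80.6 CPM there, while Rspo1 was at 1.41 CPM, Adam33 at 21.2 CPM and Whrn at 166 CPM. Its membership therefore came mainly through Whrn, its leading gene is an L5 IT marker, and it kept the highest median depth, 12592 UMIs. The other listed L5 IT markers went both ways there. Deptor (18.6 against 7.57 CPM) and Fezf2 (6.11 against 1.59 CPM) were higher, while Rmst (32.6 against 70.3 CPM) and Hgf (6.11 against 10.45 CPM) were lower. It was given no cell type name, and some results between genotypes are also given without it. That alternative, and the same for sub-cluster 4, left out predicted doublets as well. Without sub-cluster 2, edgeR with sex called 0 genes between genotypes, and 5330434G04Rik had a change of -0.77 on the log2 scale. The log2 change between genotypes, Maml3, was then -0.80, and the log2 change between genotypes, Shisa6, was -0.95.

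Sub-cluster 3, 14.96%, was led by Rmst (213 against 33.5 CPM), Zfhx4, Gm28750, Meis2 and Col25a1. Sub-cluster 4, 13.1%, was led by Dscaml1 (127 against 16.2 CPM), Grik3, Klhl1, Kctd8 and Adarb2, and it held Bcl11b at 29.3 CPM, the highest of the 7. All markers listed for L5 extratelencephalic, L2/3 IT and deep IT neurons were higher there, among them Npr3 (29.6 against 3.44 CPM) and Stard8 (40.6 against 14.5 CPM). L5 IT and L6 corticothalamic markers went both ways. Of the members' own markers, all but Rspo1 were lower, with Kcnh5 at 602 against 777 CPM. Sub-cluster 4 was given no cell type name either. Sub-cluster 6, 12.04%, was led by Mamdc2, Clec18a, Gm28905, Etv6 and Adra1a. Sub-cluster 7, 11.2%, was led by Grik1 (639 against 149 CPM), Igfn1, Lama4, Ccdc3 and Phf21b, and had the most Brinp3, 3098 CPM.

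**Figure D2:**
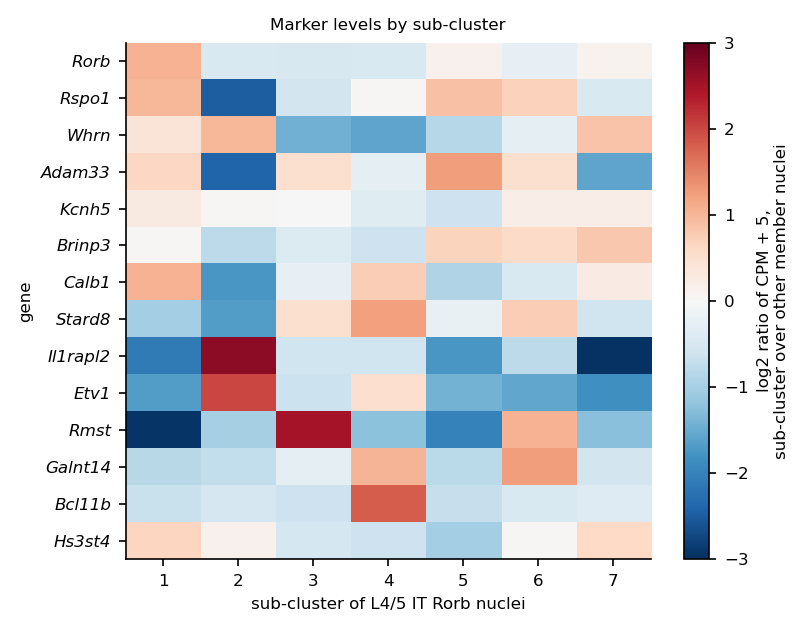
Each cell gives the log2 ratio of CPM + 5 in 1 sub-cluster (columns) over the other member nuclei for a marker gene (rows); red is higher, blue lower. Il1rapl2 and Etv1 stand out in sub-cluster 2, Rmst in sub-cluster 3 and Bcl11b in sub-cluster 4, while Kcnh5 stays near 0 in most.

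Libraries held 69503598 to 98132783 UMIs, and 7799 to 10804 nuclei per library were kept. Any 2 libraries shared 16 to 34 barcodes, at most 0.404% of the smaller. The summed member counts behind the tests ranged from 2848153 UMIs in Chd8het male 2, which stands apart with 249 members, to 9598429 in Chd8het female 1. With 1 animal per library, the spread between libraries includes animal, litter and index type.

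Members made up 16.1%, 11.3%, 12.8% and 11.9% of excitatory nuclei in WT male 1, WT male 2, WT female 1 and WT female 2. In Chd8het male 1, male 2, female 1 and female 2 they made up 13.2%, 4.69%, 16.5% and 10.9%. The genotypes overlapped, and the lowest value belonged to Chd8het male 2. Means were 13.0% ± 2.14 (SD, n = 4) in WT and 11.3% ± 4.97 (SD, n = 4) in Chd8het, a difference of -1.74 percentage points (exact two-sided permutation test, p = 0.60, where the smallest p possible is 0.0286). Without Chd8het male 2 the difference was 0.46 percentage points. A share of nuclei cannot tell fewer neurons of this type from fewer Rorb UMIs per neuron.

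Index type separated the libraries instead. Single-indexed libraries held 14.6% ± 1.92 members (SD, n = 4) and dual-indexed ones 9.69% ± 3.37 (SD, n = 4), without overlap (exact two-sided permutation test, p = 0.0286, the smallest possible). Upper-layer IT nuclei, chosen by at least 4 UMIs of Ccbe1 plus Otof and by a low Rorb count, went the other way. They made up 1.52% ± 0.25 under a single index and 4.61% ± 0.26 under a dual index (SD, n = 4 each). Rorb was found in 20.7% of them (mean over libraries), while members needed at least 4 Rorb UMIs. Rorb counts thus entered both choices in opposite directions, and these shares are not independent. The part of Rorb counts in their opposite shifts was not tested. The difference between genotypes in the members' share was 0.35 percentage points among the libraries with a single index and -3.84 among those with a dual index, each over 2 against 2 and untested. Median UMIs per member were 8490 to 9205 with a single index and 9560 to 11549 with a dual one.

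Median UMIs per member nucleus were 9458 ± 870 (SD, n = 4) in WT and 9749 ± 1370 (SD, n = 4) in Chd8het (exact two-sided permutation test, p = 0.743). The sub-clusters' shares of members had adjusted p-values of 0.40 or more between genotypes (exact permutation test for each of the 7, Benjamini-Hochberg). The smallest was that of sub-cluster 4, 11.97% ± 1.04 in WT and 14.0% ± 0.81 in Chd8het (SD, n = 4), higher in Chd8het in 4 of 4 pairs of the same sex and replicate number. Centring by library before clustering can make such shares more alike.

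**Figure D3:**
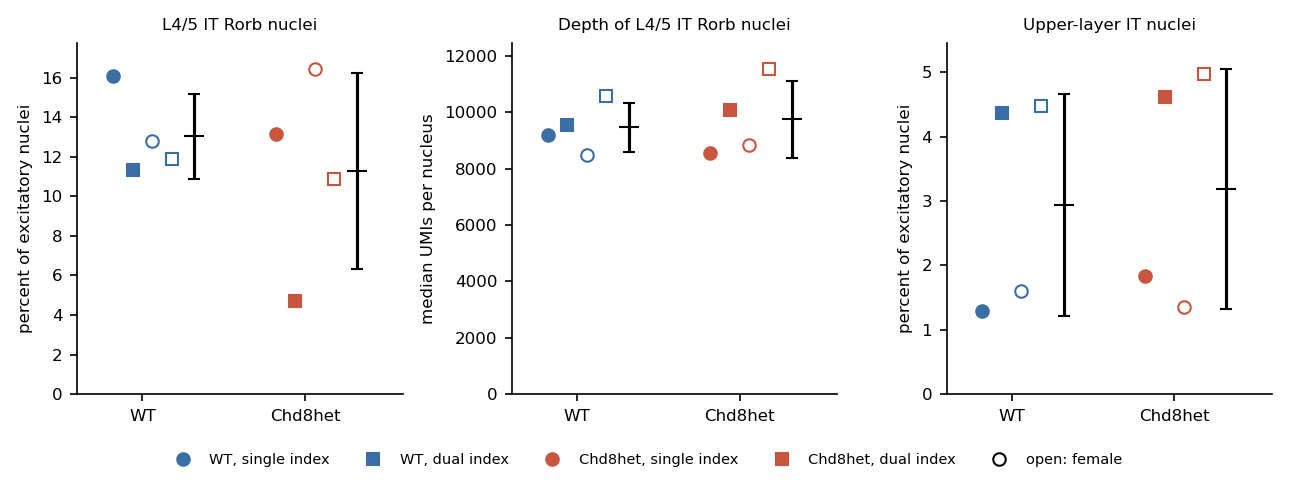
Share of L4/5 IT Rorb nuclei among excitatory nuclei, their median UMIs, and the share of upper-layer IT nuclei, per library; bars are mean ± SD of 4 libraries. Circles (single index) lie above squares (dual index) in the left panel and below them in the right one, and Chd8het male 2 is the lowest point on the left at 4.69%.

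Between genotypes the main question was which genes differ inside these nuclei. UMI counts were summed per library and fitted with edgeR's quasi-likelihood test, with sex as a covariate and p-values adjusted over all genes by Benjamini-Hochberg. Of 14432 genes tested, 0 (0%) passed an adjusted p of 0.05, and DESeq2 called 1 (with the block, 13). In the edgeR fit 229 genes had an unadjusted p under 0.05, a smaller share than the 0.05 expected if no gene differed. That fit had no term for index type. With fewer small p-values than chance would give, its 0 calls do not show that no gene differed. With a replicate block, a term for each pair of the same sex and number in place of sex, 2 genes passed (0.0139%), and both fell: 5330434G04Rik and Maml3. An unadjusted p under 0.05 was then found for 813 genes. With index type added to sex, 0 genes passed. The libraries of the genotypes did not overlap in CPM for 197 genes, or 1.37%, where random labels of 4 against 4 give a share of 0.0286. Members and gene lists here were chosen after earlier results on these libraries had shown 5330434G04Rik, Maml3 and Shisa6.

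Chd8 itself was at 77.0, 74.4, 80.1 and 74.2 CPM in the 4 WT libraries and at 74.0, 76.2, 82.1 and 72.3 CPM in the 4 Chd8het ones, in the order given above. The groups overlapped throughout, and the log2 change was -0.03 ± 0.08 (SE; edgeR adjusted p = 1.0). Since the allele is not described and counts of 3′ libraries may come from outside the mutated part, this level does not check the labels.

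5330434G04Rik was at 86.3, 89.0, 89.4 and 77.6 CPM in the WT libraries and at 58.5, 57.2, 49.4 and 45.04 CPM in the Chd8het ones. Every Chd8het library lay below every WT library, and the 4 values of each genotype stayed close together, at 85.6 ± 5.46 and 52.5 ± 6.42 CPM (SD, n = 4). The log2 change was -0.74 ± 0.09 (SE), with an edgeR adjusted p of 0.355 without the block and 0.0408 with it, and lower in 4 of 4 pairs. With index type added to sex in place of the block, the adjusted p was 0.0578, which does not pass. DESeq2 gave an adjusted p of 5.1e-05. Between 163 and 744 UMIs per library stood behind these values.

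In each of the 7 sub-clusters the Chd8het mean of 5330434G04Rik lay below the WT mean, and 28 of 28 pairs within sub-clusters were lower. These 28 come from the same 4 pairs of animals, so they are not separate comparisons. WT means ran from 40.7 CPM in sub-cluster 1 to 118 CPM in sub-cluster 3, and Chd8het means from 26.7 to 72.5 CPM. Lower means in Chd8het were also seen outside the members: upper-layer IT nuclei had 87.4 ± 5.62 CPM in WT and 50.5 ± 11.6 CPM in Chd8het (SD, n = 4), and Deptor and Hgf nuclei 180 ± 27.8 and 111 ± 12.9 CPM. The difference of its genotype effect between members and upper-layer nuclei was 0.10 ± 0.13 on the log2 scale (SE; edgeR adjusted p = 1.0).

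Maml3 encodes a mastermind-like coactivator of Notch signalling. It was at 108, 504, 167 and 454 CPM in the WT libraries and at 76.3, 282, 102 and 285 CPM in the Chd8het ones. Dual-indexed libraries were higher than single-indexed ones in both genotypes, and the genotypes overlapped, while each Chd8het library was below the WT library of its sex and number. The log2 change was -0.76 ± 0.59 (SE; edgeR adjusted p = 1.0), and -0.71 with the replicate block, which passed at an adjusted p of 0.0371. With index type added to sex in place of the block it did not pass (edgeR adjusted p = 0.223). Over the alternatives, log2 change between genotypes, Maml3, ranged from -1.20 without Chd8het male 2 to -0.19 without WT male 2, and it was -0.41 without WT female 2 and -0.48 without Chd8het male 1. The fits without 1 library had no term for index type and left index types unequal between genotypes. Their values can thus include part of the index difference, which was not tested. Between index types the same gene rose by 1.78 on the log2 scale in dual-indexed libraries. Maml3 (chr3:51685907-52105076, minus strand) overlaps 15 annotated genes, 4 of them on the other strand. Whether counting used strand is not given in the sources used here, so reads of overlapping genes may be mixed.

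Of 15 Notch pathway genes tested, Maml3 was the only one called with the block, and 0 passed without it. Notch1 and Notch2, receptors of the pathway, stood at 0.46 to 1.67 and 0.19 to 2.92 CPM over the 8 libraries and did not pass. The median log2 change of the list was 0.08, against -0.003 over all genes.

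Shisa6, an auxiliary subunit of AMPA receptors, was at 79.0, 232, 101 and 221 CPM in the WT libraries and at 53.4, 86.0, 55.0 and 148 CPM in the Chd8het ones. As for Maml3, dual-indexed libraries were higher within each genotype, the genotypes overlapped, and 4 of 4 pairs were lower in Chd8het. The log2 change was -0.94 ± 0.43 (SE; edgeR adjusted p = 1.0), with 0.174 under the replicate block. Over the alternatives, log2 change between genotypes, Shisa6, ranged from -1.35 without Chd8het female 2 to -0.51 without WT male 2. As for Maml3, the fits without 1 library left index types unequal between genotypes. DESeq2 gave an adjusted p of 1.0e-05 with the block and did not pass without it. With index type added to sex in place of the block, the edgeR adjusted p was 0.223.
Shisa6 means were lower in Chd8het in all 7 sub-clusters, in 27 of 28 pairs, again from the same 4 pairs of animals.

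**Figure D4:**
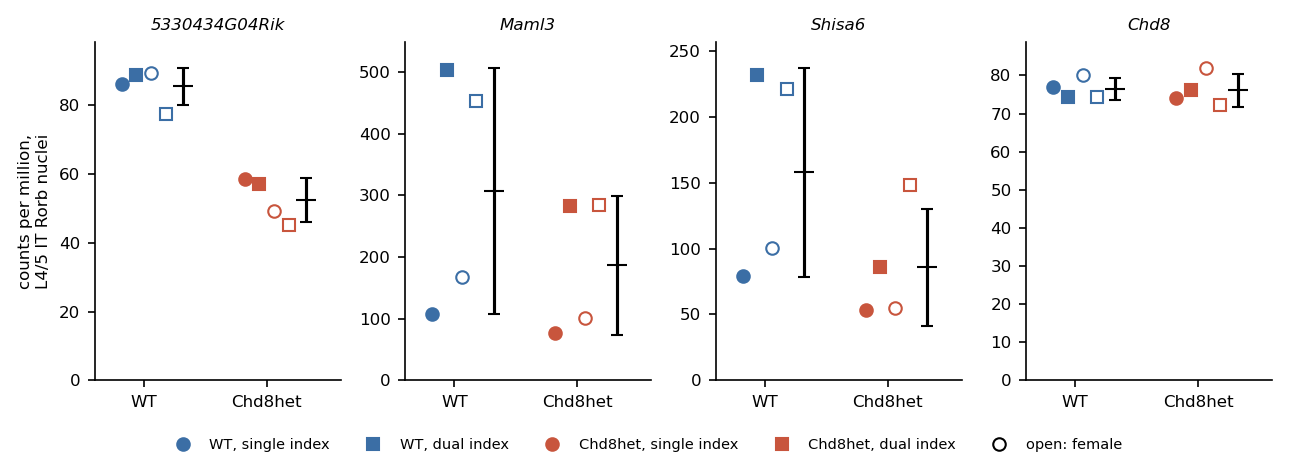
CPM of 4 genes in the L4/5 IT Rorb nuclei of each library, by genotype, with mean ± SD of 4 libraries. For 5330434G04Rik the 4 Chd8het libraries (45.04 to 58.5 CPM) lie below the 4 WT libraries (77.6 to 89.4 CPM); for Maml3 and Shisa6 the squares (dual index) lie high in both genotypes, and for Chd8 all points lie between 72.3 and 82.1 CPM.

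The gene lists gave no further calls in edgeR with or without the replicate block. Without the block, 0 members of any list passed in edgeR; with it, Maml3 was the only one. Of 27 layer identity regulators tested, 1 had an unadjusted p under 0.05, Bhlhe22, at 2.52 ± 0.30 CPM in WT and 4.56 ± 1.07 CPM in Chd8het (SD, n = 4). Its adjusted p was 1.0 in edgeR. Rora was at 3220 ± 234 and 2933 ± 215 CPM, and Bcl11b at 9.45 ± 3.72 and 17.6 ± 8.57 CPM (SD, n = 4), neither passing the test. Rorb was at 1559 ± 434 and 1535 ± 504 CPM.

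Patterning genes had 0 of 44 with an unadjusted p under 0.05, and a median log2 change of -0.04. Slit2, a repellent for ROBO receptors, was at 253 ± 84.9 CPM in WT and 336 ± 49.1 CPM in Chd8het (SD, n = 4), and higher in Chd8het in 4 of 4 pairs. Dcc, a netrin receptor, was at 1099 ± 107 and 982 ± 108 CPM, and Epha7 at 198 ± 25.9 and 174 ± 7.65 CPM. None of these passed the test.

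Glutamate receptor genes had 0 of 36 under that unadjusted p. Gria3 was at 419 ± 27.7 and 475 ± 25.6 CPM, and Grm8 at 125 ± 19.1 and 159 ± 37.5 CPM (SD, n = 4). Potassium and HCN channels had 2 of 52, with Kcng2 at 1.31 ± 0.29 and 2.97 ± 0.72 CPM. Sodium and calcium channels had 0 of 25, with Cacna2d3 at 1953 ± 192 and 1702 ± 243 CPM. Synaptic adhesion genes had 0 of 51, with Cntnap4 at 45.8 ± 9.94 and 61.0 ± 12.7 CPM.

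Chromatin remodellers had 0 of 54 under the unadjusted p, Chd7 standing at 6.32 ± 1.95 and 9.49 ± 2.39 CPM (SD, n = 4). Autism-associated genes had 1 of 100, Ptprz1, at 15.9 ± 2.00 and 24.7 ± 8.94 CPM, with Kcnq3, a potassium channel subunit, at 1606 ± 208 and 1382 ± 223 CPM. Immediate early genes had 0 of 25. Nr4a3 among them was at 35.1 CPM in Chd8het male 2 and at 0.91 to 11.1 CPM in the other 7 libraries.

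With the replicate block, unadjusted p-values under 0.05 were more frequent over all genes, 377 higher and 436 lower of 14432, and in these lists. Layer identity regulators then had 2 higher and 1 lower of 27, patterning genes 2 and 5 of 44, and glutamate receptor genes 2 and 3 of 36. Potassium and HCN channels had 1 and 6 of 52, sodium and calcium channels 0 and 2 of 25, and synaptic adhesion genes 1 and 3 of 51. Notch pathway genes had 0 and 1 of 15, immediate early genes 1 and 0 of 25, remodellers 1 and 0 of 54, and autism-associated genes 1 and 8 of 100. Of these, Maml3 alone passed after adjustment in edgeR.

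Ribosomal protein genes had log2 changes above 0 in 72 of 80 and a median of 0.26, and oxidative phosphorylation genes in 73 of 94 with a median of 0.12, where 7101 of all 14432 genes were above 0. In edgeR without the block 0 of 80 and 0 of 94 passed, with 0 and 1 at an unadjusted p under 0.05. With the block 0 passed in either list, and 17 and 10 were higher and 0 lower at an unadjusted p under 0.05, against 377 higher and 436 lower of all 14432 genes. Between index types, 33 of 80 and 15 of 94 were called lower in dual-indexed libraries and 0 and 1 higher, against 1067 lower and 1564 higher of all genes.

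Marker lists of other cell types were summed in the members. Of 14 such lists, 3 were higher in every Chd8het library than in every WT library: L5 extratelencephalic (20.98 to 31.2 against 33.1 to 46.3 CPM), L6 corticothalamic (558 to 685 against 686 to 731 CPM) and oligodendrocyte precursor markers (18.5 to 25.8 against 26.4 to 35.1 CPM). None was lower in every one. Over single genes, 137 of 14432 tested were higher in every Chd8het library. The rule itself limits Ccbe1, Otof, Deptor, Hgf, Gad1, Gad2, Slc1a3, Mog, Inpp5d and Flt1, which belong to other lists of the 14. The 3 lists named above hold none of these limited genes. All 5, 6 and 5 of their markers had UMIs. Most of the L6 corticothalamic sum was Hs3st4, at 580 CPM (mean of 8 libraries) and found in 88.1% of members, while Rprm, Syt6 and Col5a1 were at 1.17, 3.93 and 9.13 CPM. That sum is thus close to the value of a single gene. These sums moved with the genotype comparison, and their part in its results was not tested.

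Upper-layer IT nuclei (1243) and nuclei with at least 4 UMIs of Deptor plus Hgf (1032) were used to ask whether a genotype effect differed by cell type. The second set had no limit on Rorb. Its summed Rorb UMIs were 421 to 1643 per library, against 17 to 45 in upper-layer nuclei. It can thus hold Rorb-rich nuclei close to the members, and is not a clearly separate cell type. The test was an interaction term in edgeR with each library as a block. Against Deptor and Hgf nuclei, 0 of 12781 genes passed (0%), with 571 at an unadjusted p under 0.05. Against upper-layer nuclei, 4 of 13346 passed (0.03%): Shisa6, Dscaml1, Gm15398 and A330015K06Rik. A replicate block on the type effect raised that to 18, without WT male 2 there were 0, and without WT female 2 or Chd8het male 1 there were 2. Shisa6, Dscaml1, Gm15398 and A330015K06Rik were also higher in dual-indexed members, by 1.25, 1.42, 0.67 and 1.31 on the log2 scale. Their adjusted p-values for index type in edgeR were 0.000491, 0.00246, 0.0208 and 0.00167. The interaction model without the replicate block had no term for type by index type. Fits without 1 library used that model, so they also left index types unequal between genotypes.

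Shisa6 in upper-layer nuclei was at 17.2, 34.0, 19.5 and 23.6 CPM in the WT libraries and at 17.1, 40.8, 12.1 and 53.9 CPM in the Chd8het ones. The groups overlapped there, at a lower level than in members, and only 13 to 184 UMIs stood behind each value. The genotype effect in members minus that in upper-layer nuclei was -1.40 ± 0.20 on the log2 scale (SE; edgeR adjusted p = 0.00554). It did not pass without WT male 2 (adjusted p = 0.242), WT female 2 or Chd8het female 2, and ranged from -1.52 to -1.18 over the alternatives. Against Deptor and Hgf nuclei the same difference was -0.52 ± 0.18 (SE; adjusted p = 1.0).

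Dscaml1 was at 36.2, 54.0, 24.5 and 60.7 CPM in the members of the WT libraries and at 38.3, 127, 18.2 and 67.8 CPM in the Chd8het ones. In upper-layer nuclei it was at 384, 706, 257 and 631 CPM and at 233, 589, 127 and 367 CPM. Each Chd8het library was thus below its WT counterpart in upper-layer nuclei, and in members only 1 of 4 was. The difference of effects was 0.98 ± 0.14 (SE; edgeR adjusted p = 0.00554). It did not pass without WT male 2 (0.89, adjusted p = 0.154), without sub-cluster 4, which Dscaml1 led (0.81, adjusted p = 0.507), nor without sub-cluster 2 (1.059, adjusted p = 0.133), both with predicted doublets left out too. Dscaml1 in members was also far below its level in the Mog and Inpp5d nuclei given above, and the part of free RNA in its value was not tested.

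Gm15398 was at 377 ± 110 CPM in WT and 340 ± 142 CPM in Chd8het members, and at 227 ± 51.0 and 333 ± 122 CPM in upper-layer nuclei (SD, n = 4). A330015K06Rik was at 132 ± 55.8 and 130 ± 72.0 CPM in members, and at 32.4 ± 15.4 and 60.4 ± 32.8 CPM in upper-layer nuclei. In members it ran from 42.2 to 103 CPM under a single index and from 170 to 204 CPM under a dual one. Gm15398 and A330015K06Rik are noncoding genes that lie opposite a coding gene, Pcdh15 for the first and Kcnab1 for the second. The differences of effect were -0.72 (adjusted p = 0.0171) and -0.99 (adjusted p = 0.0465) in edgeR, and the calls were lost in 6 and 10 of 13 alternatives, with adjusted p-values up to 0.242 and 0.786. Gm15398 did not pass without sub-cluster 4 and predicted doublets, nor without any 1 of WT male 2, WT female 2, Chd8het male 1, Chd8het female 1 and Chd8het female 2. A330015K06Rik passed only with the replicate block, with no count filter and without WT female 1. Pcdh15 and Kcnab1 themselves did not pass without the replicate block (adjusted p = 0.293 and 0.129 in edgeR) and passed with it, at -0.49 and -0.96. Over the libraries of members, Pcdh15 was at 1785 to 2016 CPM and Gm15398 at 220 to 547 CPM. Kcnab1 was at 125 to 282 CPM and A330015K06Rik at 42.2 to 204 CPM. Whether reads of the overlapping genes are mixed was not tested.

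**Figure D5:**
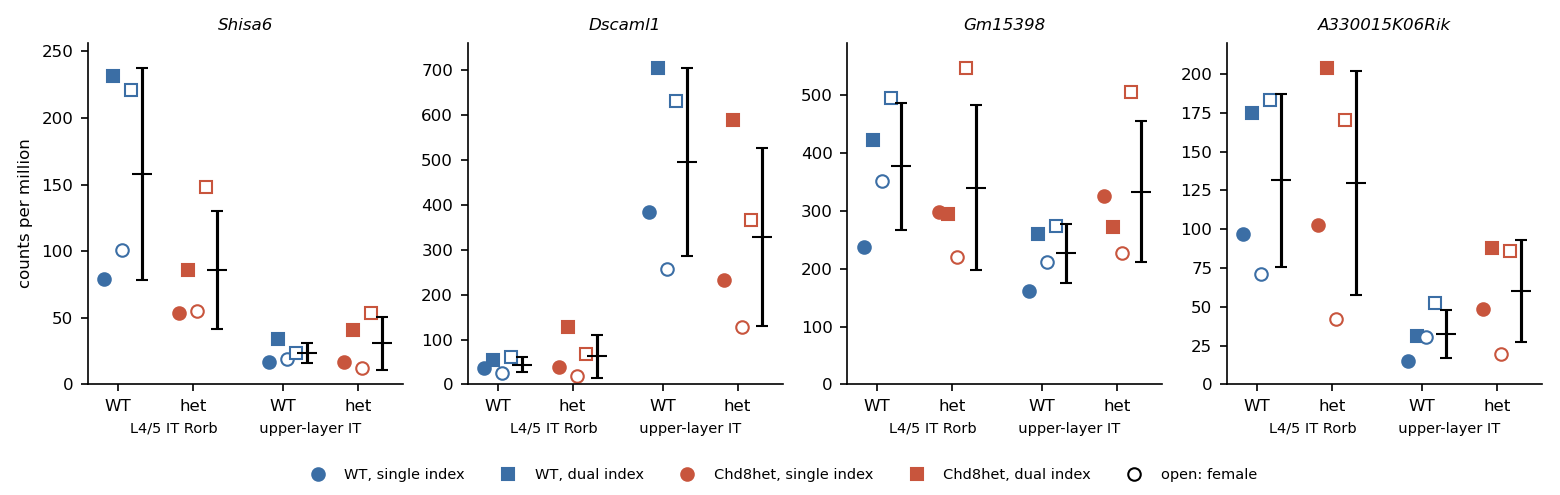
CPM per library of the 4 genes whose genotype effect differed between L4/5 IT Rorb and upper-layer IT nuclei, with mean ± SD of 4 libraries; het is Chd8het. The Shisa6 mean is lower in Chd8het in members (85.6 against 158 CPM) and not in upper-layer nuclei, while Dscaml1 is at 494.6 CPM in WT and 329 CPM in Chd8het upper-layer nuclei, above its level in members.

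Sex and index type were also compared, index type in a fit with its own term. Neither comparison measures what the genotype test could resolve. Between sexes 6 of 14432 genes passed in edgeR (0.0416%): Xist and Tsix in females, and the Y-linked Uty, Kdm5d, Eif2s3y and Ddx3y in males. Uty was at 101 to 121 CPM in the 4 male libraries and at most at 0.99 CPM in the female ones.
Between index types 2631 genes passed (18.2%), 1564 of them higher in dual-indexed libraries. Csmd2os, AY036118, Pde10a, Maml3 and Rab4a had the smallest p-values. Pde10a, a phosphodiesterase best known from striatum, was at 557 to 916 CPM in single-indexed and 1376 to 2621 CPM in dual-indexed members. Without WT male 1, WT male 2 or WT female 1 the count was 1121, 1366 or 1575.

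Of the markers outside the rule, Brinp3 was 0.54 lower on the log2 scale in dual-indexed libraries (edgeR adjusted p = 0.00548), and Kcnh5 did not pass. Rorb, which the rule used and which is given without a test, was at 1626 to 2092 CPM in single-indexed and 800.1 to 1796 CPM in dual-indexed members. Replicate number and index type coincide, so any difference between the first and second animals of a group cannot be told apart from it.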

How the data were processed

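Nuclei of 8 libraries, 1 mouse each, were analysed from the UMI count matrices that the authors deposited. Per the submitters' processing notes, reads were handled with STAR 2.7.9a, STARsolo and Cell Ranger on mm10; the strand setting is not given in the sources used here. No column of another series was present. Members were chosen by the rule given at the opening. Predicted doublets were kept in the tests and left out as an alternative and from the sub-clusters (scanpy 1.11.5; resolution 0.5, 1500 variable genes, 15 components, 20 neighbours).

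Counts were summed per library and fitted with edgeR 4.0.16 (R 4.3.3; quasi-likelihood test, TMM, filterByExpr with a minimum count of 10, sex as covariate), with Benjamini-Hochberg adjustment and a threshold of 0.05. DESeq2 1.42.0, a replicate block and an added index type term were among the alternatives. Levels are CPM, UMI counts scaled to equal totals, computed from the deposited counts. The interaction fit had a term for every library. The scripts were tested on simulated data. The depth of each library limits precision; intervals between replicates include counting error.

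Genes named were the markers, genes called, up to 3 genes of each list with the smallest p, the 15 highest and 10 lowest against other excitatory nuclei, 5 leading genes of each sub-cluster, 5 for sex and index type, Chd8, and 3 genes of an earlier report; others were chosen after their values were seen. Some genes that this rule names are not reported here. Members and lists were chosen with earlier results of these data known. Same-numbered libraries of one sex deviated together (r = 0.595, 0.334, 0.670 and 0.699 over 5930 genes). By a rule of r over 0.1 the numbers were taken to pair the samples in the replicate block, an alternative to the main fit with sex. That rule does not single out these pairs: WT female 1 and Chd8het female 2, of other number and index type, had r = 0.164. Libraries of the same index type but other sex had r = 0.011 to 0.541, and WT female 2 correlated more with Chd8het male 2 (0.440) than with its own partner. Number and index type coincide, and litter and index type cannot be told apart. Gene positions were matched for 32158 of 32285 identifiers.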

Additional observations from a re-analysis of the deposited data

Results flagged for a closer look

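Of 60 groups of 4 libraries examined for a distant library, 2 had one, where chance gives about 1 in 20 groups. WT male 1 had the highest share of members among kept nuclei of its genotype, 9.16%. Chd8het male 2 had the lowest share of members in sub-cluster 1, 13.4%, and it was also the library with the fewest members.

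For 4 genes the genotype effect in members differed from that in upper-layer IT nuclei by the interaction test. On the log2 scale the difference was 0.98 for Dscaml1, -1.40 for Shisa6, -0.72 for Gm15398 and -0.99 for A330015K06Rik.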

How the results depend on the processing

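With a replicate block 2 genes were called between genotypes, with DESeq2 and sex 1, with DESeq2 and the replicate block 13, and with no count filter 29, against 0; the range without 1 library was 0 to 0. Between sexes no count filter gave 277 genes, against 6, and leaving out 1 library gave 5 to 6. For genes called between index types in L4/5 IT Rorb nuclei, leaving out 1 library gave 1121 to 2926, against 2631. For the difference from upper-layer IT nuclei, the replicate block gave 18 genes and no count filter 39, against 4, and leaving out 1 library 0 to 4. Leaving out sub-cluster 2 or 4 with predicted doublets, alternatives chosen after seeing the data, gave 2 and 1. For Deptor and Hgf nuclei no count filter gave 10, against 0, and leaving out 1 library 0 to 2. The share of L4/5 IT Rorb nuclei among excitatory nuclei, Chd8het minus WT, ranged from -3.47 to 0.46 percentage points without 1 library, above 0 only without Chd8het male 2. The median UMIs per L4/5 IT Rorb nucleus, Chd8het minus WT, ranged from -309.5 to 693.1, below 0 without WT female 1 (-32.46) or Chd8het female 2. Genotype and interaction fits without 1 library had no term for index type and left index types unequal between genotypes. The causes were not tested.

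Of 45 genes or differences, 44 kept their direction in every alternative run. The log2 change between genotypes, Kcnh5, ranged from -0.038 to 0.10 without 1 library, below 0 without WT female 2 or Chd8het female 2. The smallest p for 4 against 4 libraries, 0.0286, limits what a single share can show.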
